A study of Mus musculus with 14 samples.

Results

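The genes described here encode the enzymes that attach ubiquitin and ubiquitin-like proteins to other proteins, or remove them. They were chosen by symbol alone: measured genes whose single platform symbol starts with Uba and a digit, Ube, Usp and a digit, Uchl, Otu, Cul and a digit, Fbxo, Fbxw, Fbxl, Cops or Skp, without Fbxo5 and the Ubap genes. The array's annotation listed 114 such genes, and 109 of them, measured by 157 probes, had values and were tested, out of 6286 named genes and 13045 features tested in all. Fbxo32, Fbxw17, Otud1, Ube2t and Usp2 had no value on any array. Of the 109 genes, 71 were measured by 1 probe, and the probes of the other genes were averaged on each array.

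The cDNA arrays held spleen RNA of the AcB61 strain (8 arrays) or the AcB55 strain (6 arrays), and the second channel of all 14 held A/J spleen RNA. Both strains are recombinant congenic: they are inbred, mostly A/J in background, and carry segments of C57BL/6 origin. The series is titled with malaria resistance. The labels give neither age, sex, infection or treatment, nor which arrays shared an animal or a pool of RNA, and they name no engineered allele. A/J was never hybridised against A/J. Values are log2 ratios, read as strain over A/J because the labels put the strain in channel 1 and A/J in channel 2, although the dye of each channel is not given, so this direction is likely rather than certain. Means are given ± SD over arrays, with n = 8 for AcB61 and n = 6 for AcB55 unless another n is stated. A ratio holds no level, so neither the level of a gene nor the identity of the tissue could be checked from these values.

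Ubiquitin is activated by an E1 enzyme, passed to an E2 conjugating enzyme, and placed on a substrate with the help of an E3 ligase. In the largest family of ligases a cullin is the scaffold. Where that cullin is Cul1, Skp1 and an F-box protein hold the substrate. The small modifier Nedd8 switches the cullin on. The COP9 signalosome takes Nedd8 off again, and deubiquitinases take ubiquitin off substrates or trim its chains. In the mouse the spleen makes red cells as well as immune cells, and ubiquitin enzymes are known to take part in the last steps of red cell maturation, when ribosomes and other proteins are cleared from the cell.

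The arrays of AcB61 did not behave as 1 set. Over all features, replicates 3, 5 and 7 correlated with each other at 0.71 to 0.792 and replicates 2, 6 and 8 at 0.789 to 0.835, while correlations between these sets ran from -0.0832 to 0.156. Within AcB55 the range was 0.373 to 0.751. Along the feature numbers of the array, values repeated with a period of 192 features, and the medians of features that shared a place in this period accounted for 23.3% to 39.7% of the variance on AcB61 replicates 2, 3, 5, 6, 7 and 8, against 1.46% to 6.28% on the other 8 arrays. These medians correlated at -0.892 to -0.717 between replicates 3, 5 and 7 and replicates 2, 6 and 8. With them subtracted, the features of these sets correlated at 0.366 to 0.567. The median SD of the 109 genes was then 0.111 in AcB61 and 0.123 in AcB55, against 0.163 and 0.133 for the values as deposited. Results are given on the deposited values. Every call made on them for the 109 genes was also made with this pattern subtracted, and so was every call in the pathway list and the marker lists given at the end.

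In AcB61, 19 of the 109 genes were higher than in A/J and 3 were lower at an adjusted p under 0.05. That was 17.4% and 2.75% of them, against 10.5% and 13.3% of all features and 13.3% and 8.8% of named genes. In AcB55, 18 genes were higher and 14 lower, 16.5% and 12.8%, against 9.77% and 10.9% of all features and 11.2% and 15.5% of named genes. Either way, 20.2% of the genes were past the threshold in AcB61 and 29.4% in AcB55, beside 23.8% and 20.7% of all features and 22.1% and 26.7% of named genes. The median log2 ratio of the 109 genes was 0.02 in AcB61 and 0.04 in AcB55, against -0.000667 and -0.00195 for all features. Most changes were small, as they were over all features. Of the 109 genes, 3 called in AcB61 and 3 called in AcB55 reached 1.5-fold, beside 255 and 330 of all 13045 features. Both comparisons share the A/J channel. In the 2 comparisons with A/J and in that between the strains, 70 genes were past no threshold. The same count was not made over all features, so 70 cannot be set against a background. Subtraction of the position pattern raised these shares both for the 109 genes and for all features: 24.8% of the 109 genes were then higher and 5.5% lower in AcB61, against 15.9% and 18.3% of all features, and 25.7% were higher and 15.6% lower in AcB55, against 15.1% and 15.2% of all features. The genes called on that scale alone, 11 in AcB61 and 13 in AcB55, are given by role below.

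**Figure D1:**
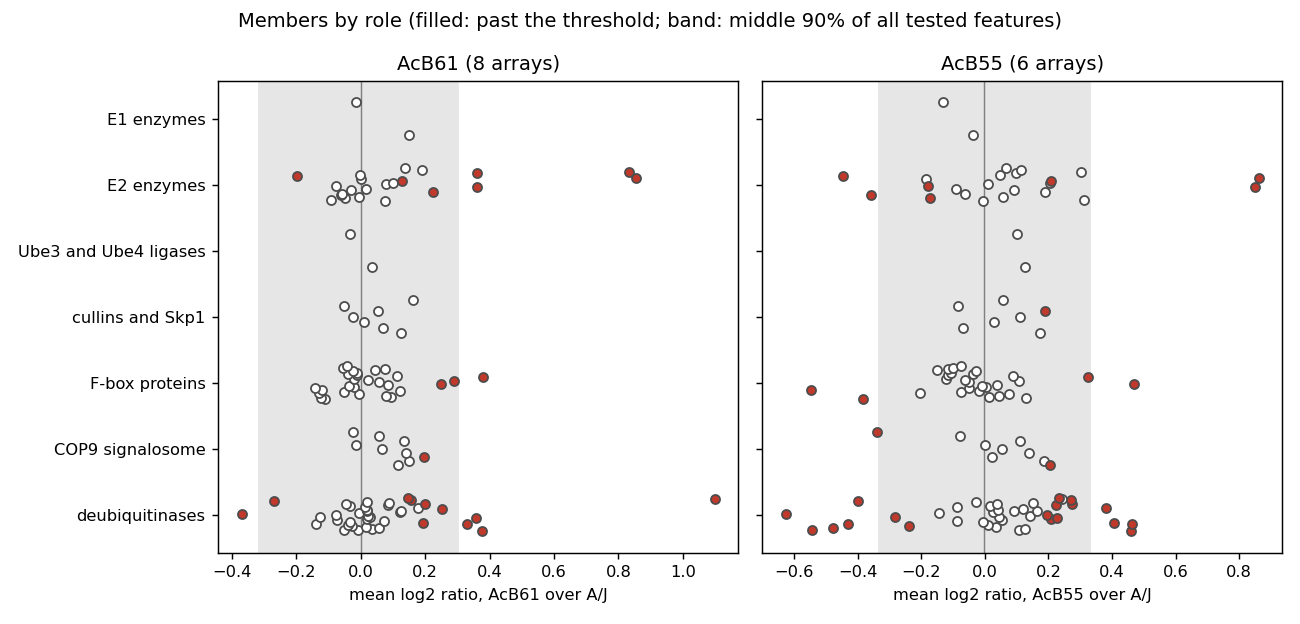
Mean log2 ratio over A/J (horizontal axis) of each of the 109 genes, grouped by role, in AcB61 on the left and AcB55 on the right. Filled points are past an adjusted p of 0.05, and the grey band holds the middle 90% of all tested features; in AcB61 the points beyond the band on the right are led by Usp8 at 1.10, and no E1 enzyme is filled in either panel.

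Neither measured E1 enzyme passed the test in either strain on the deposited values. Uba3, the catalytic subunit of the enzyme that activates Nedd8, averaged 0.15 ± 0.14 in AcB61 (adjusted p = 0.112) and -0.04 ± 0.26 in AcB55 (adjusted p = 0.805). Uba6, which activates ubiquitin and the related modifier Fat10, averaged -0.02 ± 0.21 in AcB61 and -0.13 ± 0.20 in AcB55. After subtraction of the position pattern each passed in 1 strain, Uba3 higher in AcB61 at 0.15 (adjusted p = 0.0355) and Uba6 lower in AcB55 at -0.13 (adjusted p = 0.0494). Leaving out AcB55 replicate 2 also let Uba3 pass in AcB61 (adjusted p = 0.0366), and leaving out any other single array did not. The AcB61 mean of Uba3 stayed at 0.15 there, since the strains share only their estimate of the spread.

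Among the 22 E2 enzymes, 6 were higher (27.3%) and 1 lower (4.55%) in AcB61, where 10.5% and 13.3% of all features were, and 3 were higher (13.6%) and 4 lower (18.2%) in AcB55, where 9.77% and 10.9% of all features were. The largest change was that of Ube2o, a large enzyme that combines E2 and E3 activity and that removes ribosomal proteins from reticulocytes. Its log2 ratios on AcB61 replicates 1 to 8 were 0.43, 0.76, 1.13, 0.20, 1.42, 0.53, 1.78 and 0.58, and on AcB55 replicates 1 to 6 they were 1.39, 0.84, 0.23, 1.00, 0.97 and 0.74. All 14 arrays lay above 0, the AcB61 arrays 3, 5 and 7 were the highest of their strain, and the ranges of the strains overlapped. The mean was 0.85 ± 0.54 in AcB61 (adjusted p = 0.000338) and 0.86 ± 0.38 in AcB55 (adjusted p = 0.000955), and the strains differed by -0.01 with a 95% interval of -0.47 to 0.45.

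Ube2h, the E2 that works with the CTLH ligase and is known from maturing red cells, had log2 ratios of 0.20, 0.73, 0.62, 0.20, -0.04, 0.51, 0.26 and 0.39 on the AcB61 arrays and of 1.05, 0.67, 0.62, 0.93, 0.98 and 0.85 on the AcB55 arrays. Only AcB61 replicate 5 lay below 0, and of the AcB61 arrays only replicate 2 reached into the AcB55 range. The mean was 0.36 ± 0.25 in AcB61 (adjusted p = 0.0016) and 0.85 ± 0.17 in AcB55 (adjusted p = 1.88e-06). Ube2s, which extends ubiquitin chains for the anaphase-promoting complex in mitosis, had 0.69, 0.51, 1.12, 0.88, 1.37, 0.41, 1.56 and 0.11 on the AcB61 arrays and 0.75, 0.18, -0.15, 0.74, 0.37 and -0.08 on the AcB55 arrays. It was above 0 on all AcB61 arrays and on 4 of 6 AcB55 arrays, and averaged 0.83 ± 0.50 in AcB61 (adjusted p = 0.000289) and 0.30 ± 0.39 in AcB55 (adjusted p = 0.202). Ube2c, which starts the chains that Ube2s extends, did not pass the test, with -0.09 ± 0.54 in AcB61, where it ran from -0.89 to 0.64, and 0.31 ± 0.11 in AcB55. After subtraction of the position pattern it was higher in AcB55 at 0.33 (adjusted p = 0.0178).

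The other E2 changes were smaller. Ube2r2, an E2 of cullin ligases, averaged 0.36 ± 0.21 in AcB61 (adjusted p = 0.000788) and 0.10 ± 0.19 in AcB55 (adjusted p = 0.447), and was above 0 on 8 of 8 AcB61 arrays. Ube2l3, an E2 for ligases that form a thioester with ubiquitin, averaged 0.13 ± 0.08 in AcB61 and 0.21 ± 0.10 in AcB55 and was higher in both. Its AcB61 call was lost without any 1 of replicates 2, 3, 6, 7 and 8. Ube2e3 was higher in AcB61 alone at the threshold, with 0.22 ± 0.20 in AcB61 (adjusted p = 0.0123) and 0.19 ± 0.14 in AcB55 (adjusted p = 0.0678). Its AcB61 mean was 0.09 without AcB61 replicates 3, 5 and 7 (adjusted p = 0.309), and it passed in AcB55 after subtraction of the position pattern, at 0.18 (adjusted p = 0.0195). On that scale Ube2v1 and Ube2v2, E2 variants without a catalytic cysteine, were also higher in AcB61, at 0.19 and 0.14 (adjusted p = 0.0265 and 0.04996), and Ube2n, the E2 they work with, was lower in AcB55, at -0.18 (adjusted p = 0.0193). Ube2v2 had no value on AcB61 replicate 6.

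Ube2q1 was the E2 that was lower in both strains. It ran from -0.49 to -0.01 (median -0.10) in AcB61 and from -0.57 to -0.22 (median -0.45) in AcB55, all arrays below 0. The AcB61 values fell apart by array, with replicates 2, 6 and 8 at -0.43, -0.39 and -0.49 and the other 5 between -0.14 and -0.01. The mean was -0.20 ± 0.21 in AcB61 (adjusted p = 0.0236) and -0.44 ± 0.12 in AcB55 (adjusted p = 0.000167), and without AcB61 replicates 2, 6 and 8 the AcB61 mean was -0.05 (adjusted p = 0.535). Ube2e1, Ube2j1 (an E2 of protein quality control at the endoplasmic reticulum) and Ube2d2a averaged -0.06 ± 0.14, -0.08 ± 0.05 and -0.05 ± 0.11 in AcB61 and did not pass. In AcB55 they were lower, at -0.36 ± 0.12, -0.18 ± 0.20 and -0.17 ± 0.15. The AcB55 calls of Ube2j1 and Ube2d2a were each lost without most single AcB55 arrays.

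**Figure D2:**
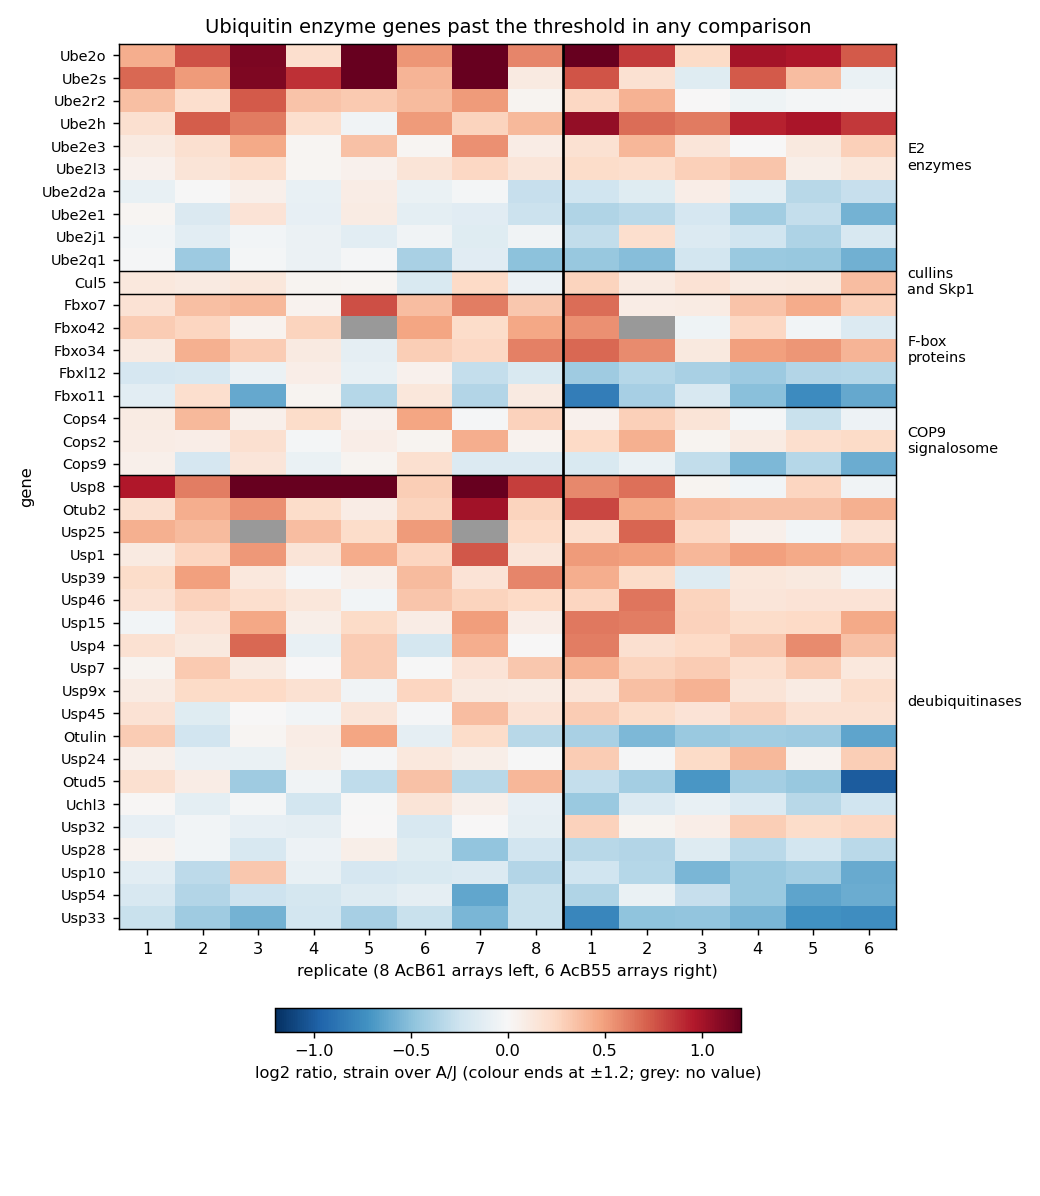
Log2 ratio over A/J of the 39 genes that were past the threshold in any of the 3 comparisons, grouped by role; columns are the 8 AcB61 arrays and then the 6 AcB55 arrays, by replicate. Red is above 0 and blue below 0, the colour ends at 1.2 on either side, and grey marks an array with no value; Ube2o is red on all 14 arrays and Usp33 blue on all 14.

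For the genes with the largest changes, the promoter sequences show what lies before their starts. Genes were taken whose mean was above 0.8 in either strain and past the threshold, and the lowest gene of each strain, which gave Ube2h, Ube2o, Ube2s, Usp8 and Usp33. Windows of the 250 bases before the start were matched for 3 of these 5, from RefSeq on GRCm38.p6, which is the C57BL/6 reference; which parental allele each strain carries there is not given. Capitals mark matches, on either strand, to the GATA motif (AGATAA or AGATAG, and the same with T in first place), the CACCC box (CACCC), the CCAAT box (CCAAT) and the cell cycle element CHR (TTTGAA or TTCGAA).
Ube2h, first start, chr6:30304540-30304789, minus strand: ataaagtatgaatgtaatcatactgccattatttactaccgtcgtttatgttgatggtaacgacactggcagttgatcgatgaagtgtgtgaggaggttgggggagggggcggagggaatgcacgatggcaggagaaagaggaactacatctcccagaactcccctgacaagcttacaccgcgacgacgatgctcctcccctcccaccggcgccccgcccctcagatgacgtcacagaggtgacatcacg
Ube2h, second start, chr6:30243804-30244053, minus strand: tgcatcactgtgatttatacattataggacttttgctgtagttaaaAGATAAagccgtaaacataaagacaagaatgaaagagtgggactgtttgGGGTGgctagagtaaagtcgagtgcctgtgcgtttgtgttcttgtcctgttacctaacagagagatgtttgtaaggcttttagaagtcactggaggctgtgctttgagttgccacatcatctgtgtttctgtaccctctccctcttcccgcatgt
Ube2s, chr7:4812341-4812590, minus strand: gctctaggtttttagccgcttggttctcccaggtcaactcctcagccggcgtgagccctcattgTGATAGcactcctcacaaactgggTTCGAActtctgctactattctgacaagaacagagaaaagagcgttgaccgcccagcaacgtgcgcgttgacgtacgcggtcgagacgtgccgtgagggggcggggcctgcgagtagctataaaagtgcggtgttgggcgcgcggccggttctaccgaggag
Usp8, chr2:126707078-126707327, plus strand: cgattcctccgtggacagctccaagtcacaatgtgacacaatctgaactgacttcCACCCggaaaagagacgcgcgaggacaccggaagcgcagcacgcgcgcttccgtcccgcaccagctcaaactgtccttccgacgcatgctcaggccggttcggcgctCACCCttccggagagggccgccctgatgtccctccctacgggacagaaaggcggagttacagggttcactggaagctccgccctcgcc
The second Ube2h window held AGATAA 204 bases before the start and GGGTG, the reverse complement of CACCC, at 155, and the first window held none of these letters. That of Ube2s held TGATAG at 186 and TTCGAA at 162, and that of Usp8 held CACCC at 195 and at 88. Over all 32851 windows of this length, 26.5% held a GATA match, 52.0% a CACCC box, 33.8% a CCAAT box and 17.1% a CHR match. Over the 107 windows found for 84 of the ubiquitin enzyme genes the shares were 12.1%, 59.8%, 19.6% and 13.1%. Such short matches are a description of the letters and not of bound sites.

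The ligase scaffolds had 1 call on the deposited values, in AcB55. That was 1 of 7 genes (14.3%) in AcB55 and 0 of 7 in AcB61, against 20.7% and 23.8% of all features. Of the 6 cullins and Skp1, Cul5, the scaffold used by SOCS box proteins, averaged 0.05 ± 0.13 in AcB61 (adjusted p = 0.508) and was higher in AcB55, at 0.19 ± 0.11 (adjusted p = 0.0211). All 6 AcB55 arrays lay above 0, but the call was lost without AcB55 replicate 1 or 6. Cul1, the scaffold that binds Skp1, averaged 0.12 ± 0.14 in AcB61 (adjusted p = 0.12) and 0.17 ± 0.17 in AcB55 (adjusted p = 0.0647). It was higher in both strains after subtraction of the position pattern, at 0.16 in AcB61 (adjusted p = 0.008) and 0.19 in AcB55 (adjusted p = 0.00537), and also passed in AcB55 with each array centred on its median, with quantile normalization, with array weights and with 1 probe per gene. Skp1, the adaptor between Cul1 and the F-box proteins, averaged 0.16 ± 0.35 in AcB61, where it ran from -0.26 to 0.56, and 0.06 ± 0.07 in AcB55. Cul2, Cul3, Cul4b and Cul7 averaged between -0.05 and 0.07 in AcB61 and between -0.08 and 0.11 in AcB55, and none passed on the deposited values. Nor did the ligases Ube3b and Ube4b, with 0.04 ± 0.17 and -0.03 ± 0.15 in AcB61 and 0.13 ± 0.12 and 0.10 ± 0.05 in AcB55. Subtraction of the position pattern added Skp1 in AcB61, at 0.13 (adjusted p = 0.0285), and Cul4b, Ube3b and Ube4b in AcB55, at 0.13, 0.16 and 0.11 (adjusted p = 0.0392, 0.00816 and 0.033), all higher than A/J.

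Of the 28 F-box proteins, which choose the substrate, 3 were higher in AcB61 (10.7%) and 0 lower, against 10.5% and 13.3% of all features. In AcB55, 2 were higher and 2 lower (7.14% each), against 9.77% and 10.9% of all features, so the shares that were higher lay near those of all features. Fbxo7, whose loss in mice is known to disturb red cell maturation, ran from 0.04 to 0.77 (median 0.36) in AcB61 and from 0.09 to 0.67 (median 0.32) in AcB55. Every array of both strains was above 0 and the ranges overlapped almost wholly. Its mean was 0.38 ± 0.23 in AcB61 (adjusted p = 0.00114) and 0.32 ± 0.22 in AcB55 (adjusted p = 0.00994, lost without AcB55 replicate 1). Fbxo34 ran from -0.10 to 0.61 (median 0.28) in AcB61 and from 0.12 to 0.69 (median 0.51) in AcB55. It was higher in both, at 0.25 ± 0.22 in AcB61 (adjusted p = 0.013) and 0.47 ± 0.20 in AcB55 (adjusted p = 0.00033), and both of its probes lay above 0 in both strains. Its AcB61 mean was 0.13 without AcB61 replicates 2, 6 and 8 (adjusted p = 0.218). Fbxo42, a ligase subunit that binds p53, was higher in AcB61 at 0.29 ± 0.15 (n = 7, adjusted p = 0.00988) and averaged 0.11 ± 0.29 in AcB55 (n = 5, adjusted p = 0.471). Its AcB61 call was also lost without replicates 2, 6 and 8, at 0.21 (adjusted p = 0.134).

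The F-box proteins that were lower in AcB55 were Fbxo11, which marks the B cell regulator Bcl6 for degradation, and Fbxl12. Fbxo11 ran from -0.61 to 0.20 (median -0.05) in AcB61 and from -0.83 to -0.19 (median -0.56) in AcB55. On AcB61 arrays it was -0.61, -0.34 and -0.35 on replicates 3, 5 and 7 and 0.20, 0.14 and 0.11 on replicates 2, 6 and 8. With the position pattern subtracted it averaged -0.17 in AcB61 (adjusted p = 0.0193), against -0.12 as deposited (adjusted p = 0.369). Fbxl12 ran from -0.29 to 0.08 (median -0.14) in AcB61, with a mean of -0.11 ± 0.13 (adjusted p = 0.0791), which passed after subtraction of the position pattern (adjusted p = 0.0317). In AcB55 it was tight, from -0.44 to -0.35 (median -0.37) with a mean of -0.38 ± 0.04 (adjusted p = 3.53e-05). Fbxw5 was lower in AcB55 on the subtracted scale alone, at -0.14 (adjusted p = 0.0208).

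**Figure D3:**
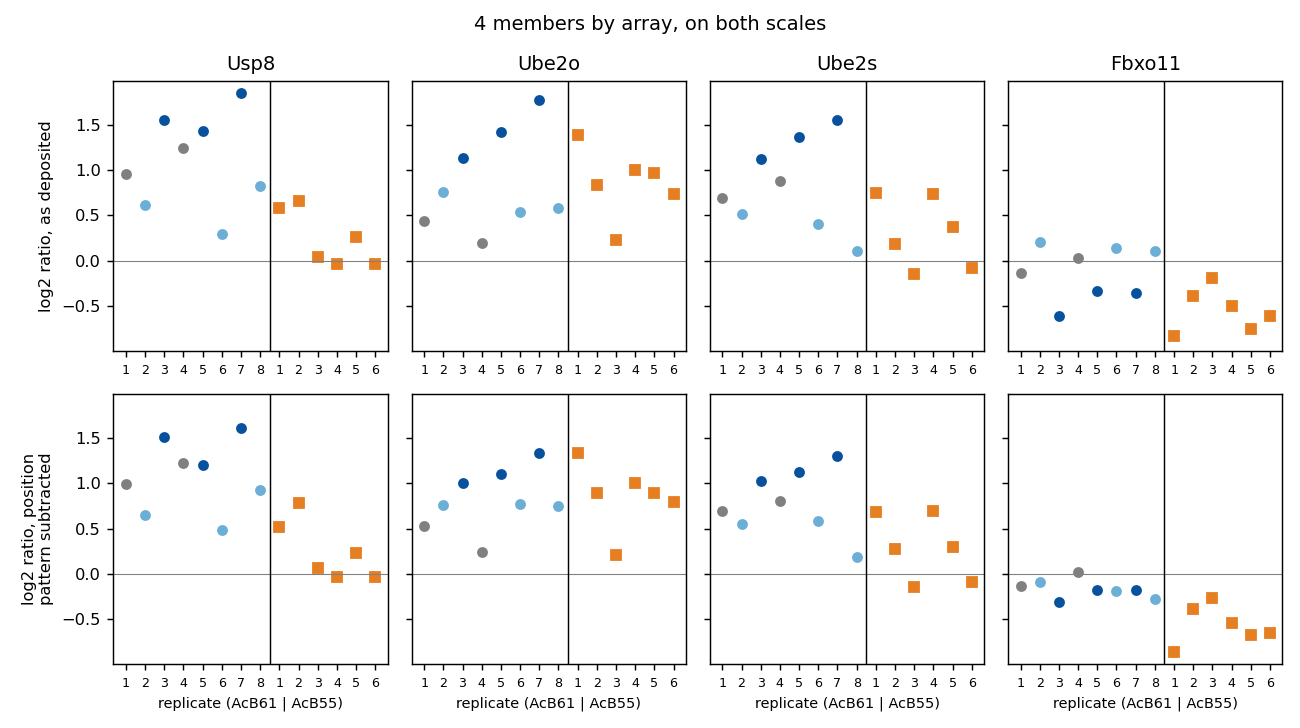
Log2 ratio over A/J of Usp8, Ube2o, Ube2s and Fbxo11 on each array, as deposited (upper panels) and with the position pattern subtracted (lower panels); AcB61 replicates are circles on the left, dark blue for 3, 5 and 7, light blue for 2, 6 and 8 and grey for 1 and 4, and AcB55 replicates are orange squares on the right. In Fbxo11 the dark and light circles stand apart in the upper panel, from -0.61 to 0.20, and lie together in the lower one. In Usp8, Ube2o and Ube2s the dark circles stay above the light ones in the lower panels too. For Usp8 they are 1.51, 1.2 and 1.61 there, against 0.646, 0.48 and 0.925 for the light ones.

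Of the COP9 signalosome, 9 Cops genes were measured. On the deposited values 1 was higher (11.1%) and 0 lower in AcB61, against 10.5% and 13.3% of all features. For AcB55, 1 was higher and 1 lower (11.1% each), against 9.77% and 10.9% of all features, so the shares that were higher lay near those of all features. In AcB61, Cops4 was higher, at 0.19 ± 0.17 (adjusted p = 0.0287), with 0.02 ± 0.19 in AcB55, and this call was lost without replicate 2, 4, 6 or 8 of AcB61, and the mean was 0.08 without 2, 6 and 8 (adjusted p = 0.402). Cops2 averaged 0.12 ± 0.14 in AcB61 (adjusted p = 0.127) and was higher in AcB55, at 0.20 ± 0.13 (adjusted p = 0.0209), a call lost without AcB55 replicate 1, 2 or 6. Cops9, the smallest subunit, ran from -0.20 to 0.19 (median -0.03) in AcB61 and from -0.60 to -0.08 (median -0.32) in AcB55. It averaged -0.02 ± 0.15 in AcB61 and was lower in AcB55, at -0.34 ± 0.20 (adjusted p = 0.00162). Cops5, the catalytic subunit that cleaves Nedd8 from cullins, averaged 0.14 ± 0.31 in AcB61 (n = 7, adjusted p = 0.291) and 0.14 ± 0.19 in AcB55 (adjusted p = 0.359). Cops3, Cops6, Cops7a, Cops7b and Cops8 averaged between -0.01 and 0.15 in AcB61 and between -0.08 and 0.19 in AcB55 and did not pass on the deposited values. Of these, Cops3 was higher in both strains after subtraction of the position pattern, at 0.17 in AcB61 (adjusted p = 0.00486) and 0.19 in AcB55 (adjusted p = 0.00623), and Cops7b was higher in AcB61 at 0.13 (adjusted p = 0.0263). Cops3 in AcB55 also passed with array weights and with each strain fitted on its own arrays (adjusted p = 0.0461 and 0.0199).

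Of the 39 deubiquitinases, the largest of these groups, 9 were higher (23.1%) and 2 lower (5.13%) in AcB61, where 10.5% and 13.3% of all features were, and 11 were higher (28.2%) and 7 lower (17.9%) in AcB55, where 9.77% and 10.9% of all features were. Usp8, which removes ubiquitin from receptors on endosomes and so spares them from lysosomal degradation, had the highest mean of all 109 genes in AcB61. On AcB61 replicates 1 to 8 its log2 ratios were 0.96, 0.62, 1.56, 1.25, 1.43, 0.29, 1.85 and 0.83, and on AcB55 replicates 1 to 6 they were 0.58, 0.66, 0.04, -0.03, 0.26 and -0.04. All AcB61 arrays lay above 0, replicate 6 within the AcB55 range and replicate 2 as well. The mean was 1.10 ± 0.52 in AcB61 (adjusted p = 1.64e-05) and 0.24 ± 0.31 in AcB55 (adjusted p = 0.312).

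Usp1, which acts on the DNA repair proteins Fancd2 and Pcna, ran from 0.11 to 0.75 (median 0.26) in AcB61 and from 0.40 to 0.51 (median 0.47) in AcB55. It averaged 0.33 ± 0.22 in AcB61 (adjusted p = 0.000732) and 0.46 ± 0.05 in AcB55 (adjusted p = 0.000107), with both probes higher in both strains. Otub2, of the OTU family, ran from 0.09 to 1.01 (median 0.27) in AcB61 and from 0.35 to 0.80 (median 0.40) in AcB55, with means of 0.38 ± 0.29 (adjusted p = 0.00213) and 0.46 ± 0.17 (adjusted p = 0.00132). Every array of both strains was above 0 for both genes. Usp25 averaged 0.36 ± 0.11 in AcB61 (n = 6, adjusted p = 0.00277) and 0.23 ± 0.25 in AcB55 (adjusted p = 0.0434), where 1 array, replicate 2 at 0.70, stood above the others and the mean without replicates 1 and 2 was 0.11 (adjusted p = 0.312).

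Usp15, Usp46, Usp7 and Usp9x were the other deubiquitinases higher in both strains. Usp15 is known to associate with the COP9 signalosome, Usp46 works with the cofactor Uaf1, Usp7 stabilises the p53 regulator Mdm2, and Usp9x trims many substrates. Their means ran from 0.15 for Usp9x to 0.20 for Usp46 in AcB61 and from 0.23 for Usp9x to 0.41 for Usp15 in AcB55. The AcB61 calls of Usp15, Usp7 and Usp9x were each lost without any 1 of 4 AcB61 arrays, and without replicates 3, 5 and 7 the AcB61 mean was 0.07 for Usp15 (adjusted p = 0.479) and 0.13 for Usp7 (adjusted p = 0.148). Usp39, a splicing factor that lacks deubiquitinase activity, was higher in AcB61 at 0.25 ± 0.21 (adjusted p = 0.0128) and averaged 0.12 ± 0.21 in AcB55. Without AcB61 replicates 2, 6 and 8, Usp39 averaged 0.11 in AcB61 (adjusted p = 0.28), and the AcB61 calls of Usp46, Usp7 and Usp9x were lost as well, at 0.15, 0.12 and 0.12 (adjusted p = 0.131, 0.139 and 0.178). Usp4, Usp45 and Usp24 averaged 0.18 ± 0.29, 0.08 ± 0.16 and 0.02 ± 0.07 in AcB61 without passing, and were higher in AcB55, at 0.38 ± 0.17, 0.22 ± 0.06 and 0.21 ± 0.16. Subtraction of the position pattern added Usp4 in AcB61, at 0.15 (adjusted p = 0.044), and Usp5, Usp36 and Usp37 in AcB55, at 0.19, 0.16 and 0.11 (adjusted p = 0.00641, 0.0183 and 0.0227), all higher than A/J.

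Usp33, which acts on beta-arrestins and the receptor Robo1, was the lowest of the 109 genes in both strains. Its log2 ratios were -0.26, -0.42, -0.57, -0.22, -0.40, -0.27, -0.55 and -0.27 on the AcB61 arrays and -0.78, -0.49, -0.47, -0.55, -0.72 and -0.75 on the AcB55 arrays. All 14 arrays were below 0, and only AcB61 replicates 3 and 7 reached into the AcB55 range. The mean was -0.37 ± 0.14 in AcB61 (adjusted p = 6.7e-05) and -0.63 ± 0.14 in AcB55 (adjusted p = 1.24e-06). Usp54 ran from -0.62 to -0.11 (median -0.23) in AcB61 and from -0.63 to -0.08 (median -0.41) in AcB55, also with every array below 0, and averaged -0.27 ± 0.16 in AcB61 (adjusted p = 0.00405) and -0.40 ± 0.21 in AcB55 (adjusted p = 0.000527).

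A further 5 deubiquitinases were lower in AcB55 and not past the threshold in AcB61. Otud5, a regulator of interferon production, ran from -0.43 to 0.40 (median 0.02) in AcB61 and from -1.003 to -0.29 (median -0.43) in AcB55. Otulin, which cleaves linear ubiquitin chains and restrains NF-kappaB signalling, ran from -0.34 to 0.48 (median 0.06) in AcB61 and from -0.63 to -0.39 (median -0.44) in AcB55. In both genes all 6 AcB55 arrays were below 0, and the AcB61 arrays lay on both sides of it. The AcB55 means were -0.54 ± 0.26 for Otud5 (adjusted p = 0.00118) and -0.48 ± 0.09 for Otulin (adjusted p = 0.000384). Usp10, Usp28 and Uchl3 averaged -0.14 ± 0.21, -0.13 ± 0.18 and -0.03 ± 0.11 in AcB61, and -0.43 ± 0.13, -0.28 ± 0.08 and -0.24 ± 0.13 in AcB55.

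**Figure D4:**
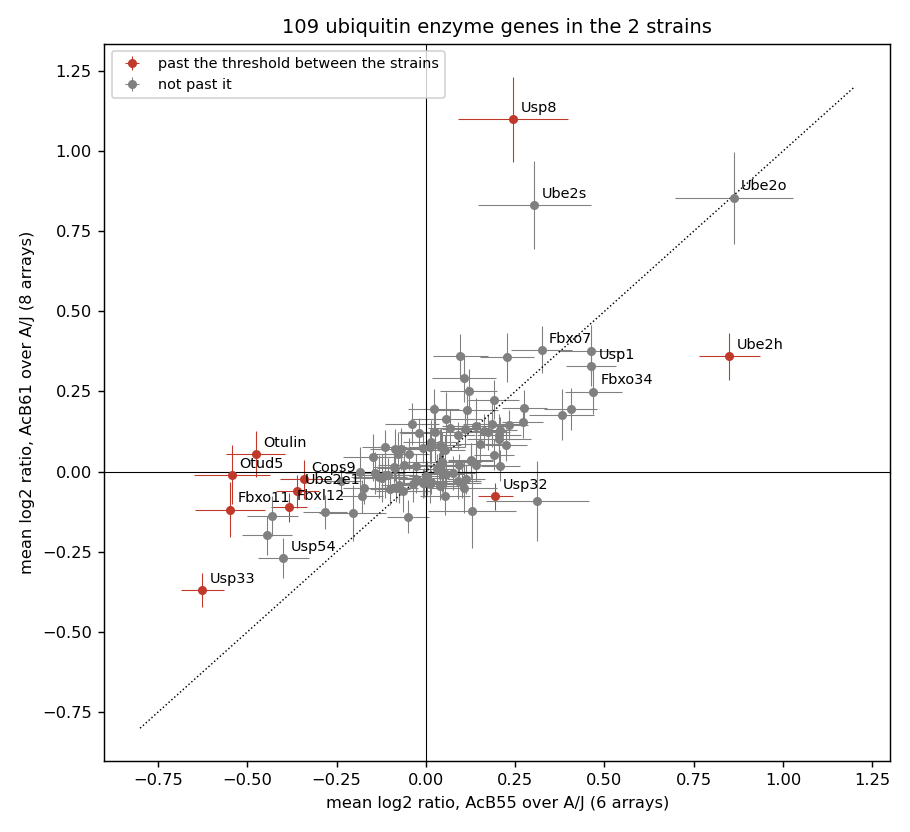
Mean log2 ratio over A/J in AcB61 (vertical axis) against that in AcB55 (horizontal axis) of the 109 genes; bars are the standard errors of the fit, the dotted line marks equal means, and red marks the 10 genes past the threshold between the strains. Both axes use the same A/J reference; Usp8 lies far above the line at 1.10 and 0.24, and Ube2h below it at 0.36 and 0.85.

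The difference between the strains was tested directly, as AcB61 minus AcB55. Of the 109 genes, 8 were higher in AcB61 than in AcB55 and 2 were lower, 7.34% and 1.83%, against 5.29% and 6.98% of all features and 6.79% and 3.63% of named genes. In all, 9.17% were past the threshold, near the 12.3% of all features and 10.4% of named genes. The median difference of the 109 genes was 0.02, against 0.01 for all features. Of the 109 genes, 1 called gene, Usp8, reached 1.5-fold, beside 240 of all 13045 features. The ranges of the strains' arrays did not overlap for 3 of the 109 genes, 2.75%, against 2.67% of all features, and these were Otulin, Fbxl12 and Usp32.

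Usp8 was 0.85 higher in AcB61 (95% interval 0.43 to 1.28, adjusted p = 0.0125). Otud5 was 0.53 higher (0.24 to 0.83, adjusted p = 0.0218), and Otulin, whose means were 0.06 ± 0.27 in AcB61 and -0.48 ± 0.09 in AcB55, was 0.53 higher as well (0.30 to 0.76, adjusted p = 0.00553). Fbxo11 was 0.43 higher in AcB61 (0.16 to 0.70, adjusted p = 0.0391). Usp8 was thus above A/J in AcB61, while the differences of Otud5, Otulin and Fbxo11 went with AcB55 means below 0.

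Smaller differences were those of Cops9 at 0.32 (adjusted p = 0.0331), Ube2e1 at 0.30 (adjusted p = 0.021), Fbxl12 at 0.27 (adjusted p = 0.0159) and Usp33 at 0.26 (adjusted p = 0.0424). Ube2h was lower in AcB61 than in AcB55 by -0.49 (95% interval -0.72 to -0.26, adjusted p = 0.00952), with both strains above A/J. Usp32, which acts on the endosomal protein Rab7, was lower by -0.27 (-0.41 to -0.14, adjusted p = 0.0119). It ran from -0.19 to 0.01 (median -0.10) in AcB61 and from 0.03 to 0.30 (median 0.24) in AcB55, and was past the threshold above A/J in AcB55 (adjusted p = 0.00693). After subtraction of the position pattern it was also lower than A/J in AcB61, at -0.09 (adjusted p = 0.0388). Its 2 probes gave unlike values, -0.33 and 0.17 in AcB61 and -0.01 and 0.40 in AcB55, although both were lower in AcB61 than in AcB55, by -0.32 and -0.23. Otulin and Usp32 were the genes that differed between the strains and had means of opposite sign.

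**Figure D5:**
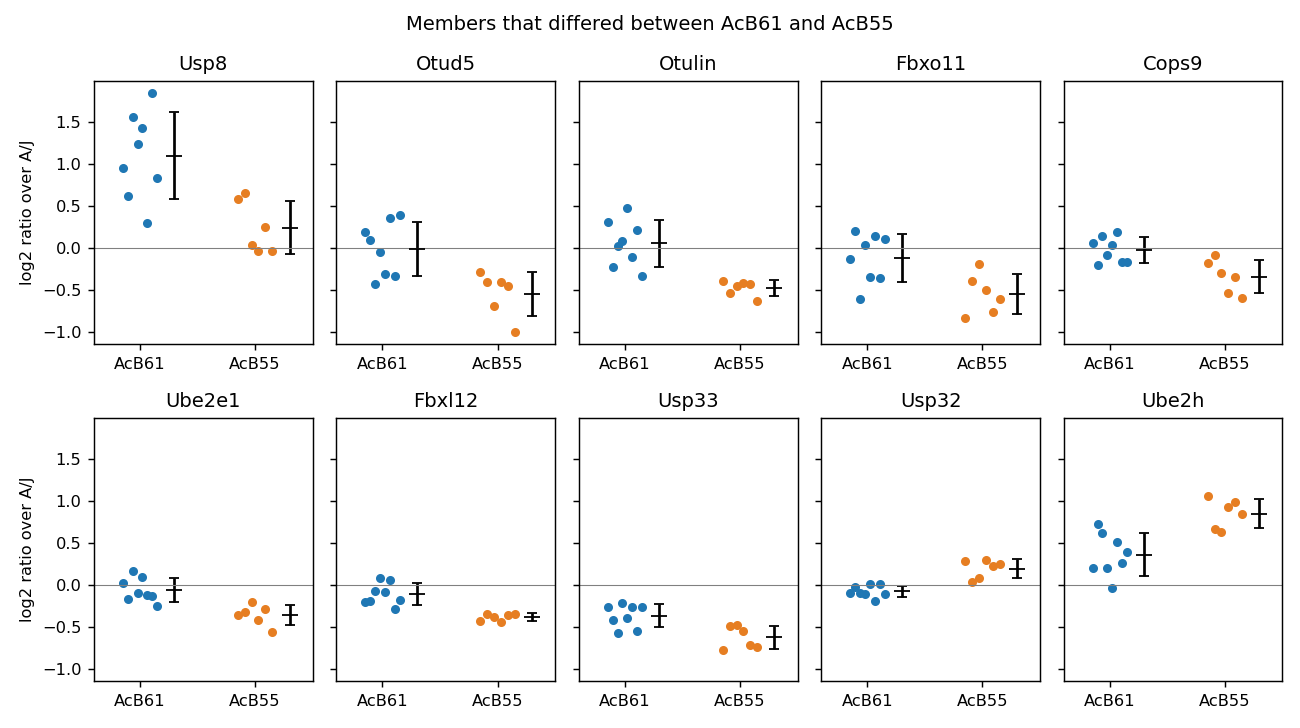
Log2 ratio over A/J on each array (points, AcB61 left in blue and AcB55 right in orange) for the 10 genes past the threshold between the strains, with the mean and SD as bars beside them. The points of the strains do not overlap in Otulin, Fbxl12 and Usp32, and in Usp8 the AcB61 points spread from 0.29 to 1.85.

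Several of these calls rest on few arrays. Usp8, Otulin, Fbxl12, Ube2h and Usp32 kept theirs without any single array, while Otud5 and Ube2e1 lost it without AcB55 replicate 6, Cops9 without any 1 of 6 arrays, Fbxo11 without any 1 of 9 and Usp33 without any 1 of 10. With AcB55 replicates 3 and 4 left out, whose titles carry a b, only Otulin and Fbxo11 of the 8 higher genes were past the threshold, and Usp8 differed by 0.73 (adjusted p = 0.083). In that setting 2.25% of all features were higher in AcB61 than in AcB55, against 5.29% with all arrays. With the position pattern subtracted, 5 more genes passed between the strains, and 10.1% of the 109 genes were higher and 3.67% lower, against 11.8% and 14.1% of all features. Ube2s was among them, at 0.49 higher in AcB61 (adjusted p = 0.0307), against 0.53 as deposited (adjusted p = 0.106). Usp10 passed at 0.32 higher (adjusted p = 0.00705), against 0.29 (adjusted p = 0.0516), and Fbxw5 at 0.21 higher (adjusted p = 0.0115). Ube2c was lower in AcB61 than in AcB55 by -0.43 (adjusted p = 0.0249), and Fbxo34 by -0.24 (adjusted p = 0.0456), against -0.22 as deposited for Fbxo34 (adjusted p = 0.187).

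Other genes of the pathway were read from a list of 115, of which 72 were measured and tested. In AcB61, 17 were higher (23.6%) and 4 lower (5.56%), against 10.5% and 13.3% of all features. In AcB55, 15 were higher (20.8%) and 10 lower (13.9%), against 9.77% and 10.9% of all features. The median was 0.06 in AcB61 and 0.04 in AcB55, against -0.000667 and -0.00195 for all features. Cdc20, an activator of the anaphase-promoting complex in mitosis, was higher by 0.70 in AcB61 and 0.75 in AcB55, and the membrane ligase Marchf5 by 0.71 and 0.58. Fzr1, the other activator of that complex, was higher in AcB61 at 0.78 (adjusted p = 9.85e-06) and averaged -0.08 in AcB55 (n = 5, adjusted p = 0.677). Marchf8, a ligase for membrane receptors, averaged 0.41 in AcB61 and 0.89 in AcB55, and Syvn1, a ligase of the endoplasmic reticulum, was lower in both, by -0.32 and -0.47. Nedd8, the modifier of cullins, averaged 0.07 in AcB61 (adjusted p = 0.523) and -0.30 in AcB55 (adjusted p = 0.00537). Between the strains 5 of the 72 were higher (6.94%) and 6 lower (8.33%) in AcB61, near the 5.29% and 6.98% of all features. The higher genes were led by Fzr1 at 0.87 and the ligase Huwe1 at 0.78 above AcB55, each with n = 5 in AcB55. The lower genes were led by the histone deubiquitinase Mysm1 at -0.50 and Marchf8 at -0.48.

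Markers of several cell types moved on the same arrays. The mean of 8 measured erythroid genes of 8 listed ran from 0.485 to 0.816 on the AcB61 arrays and from 0.428 to 0.703 on the AcB55 arrays, with 6 of 8 higher in AcB61 and 6 higher and 1 lower in AcB55. That of 9 measured genes of dividing cells of 10 listed ran from 0.499 to 0.89 in AcB61 and from 0.749 to 1.04 in AcB55, and all 9 were higher in both strains. Granulocytes were measured by 3 genes of 8, whose mean ran from 0.395 to 1.18 in AcB61. In AcB55 it was 1.38 and 1.78 on replicates 1 and 2 and at most 0.202 on the other 4, and 2 of the 3 were higher in AcB61 and 1 in AcB55.

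Other marker lists ran lower than A/J or had few measured genes. Blnk, the measured 1 of 7 B cell genes, ran from -0.798 to -0.326 on 6 AcB61 arrays and from -1.47 to -0.569 on the 6 AcB55 arrays, and was lower in both strains. The mean of 4 macrophage genes of 8 ran from -0.357 to -0.0856 in AcB61 and from -0.528 to -0.148 in AcB55, with 1 lower in AcB61 and 3 lower in AcB55. That of 2 platelet genes of 5 ran from -0.663 to -0.255 in AcB61, where both were lower, and from -0.544 to 0.236 in AcB55, where neither passed. Satb1, the measured 1 of 7 T cell genes, ran from -0.175 to 0.219 in AcB61 and from -0.309 to 0.0487 in AcB55, where it was lower. Cpa1, the measured 1 of 5 genes of exocrine pancreas, ran from -0.89 to 0.477 in AcB61 and from -3.58 to 2.37 on 5 AcB55 arrays, 2.37 being replicate 1 and the other 4 below 0, and passed in neither. The part of these cell types in the changes above was not tested, and in whole spleen more cells of a type and more RNA per cell cannot be told apart.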

How the data were processed

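Spleen RNA of 8 AcB61 and 6 AcB55 arrays was compared with A/J spleen RNA in the second channel. Per the labels, a ScanArray scanner gave the images, QuantArray the spot intensities and GeneSpring the further handling, and the text stops where dye swap is named. The deposited table holds 1 log2 ratio per feature and array. Base 2 was taken; the base, the dye of each channel, the centring and the normalization are not given in the sources used here, and another base would scale all values alike. Array medians lay within 0.1 of 0, and the values were used as deposited.

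Gene names came from the platform annotation: 7849 probes with a value had 1 symbol, 356 several and 6407 none, and only the first kind was named. Each array value of a gene is the mean of its probes, and features with a value on at least 3 arrays of each strain were tested, which left out 6. Of the 38 members with several probes, probe means had both signs for 20 in AcB61 and 16 in AcB55, and probes were called both ways for 2 and 1.

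limma 3.58.1 in R 4.3.3 fitted a mean per strain over all 14 arrays (lmFit, eBayes), without a covariate. The mean of either strain was set against 0, and the strains against each other by the contrast AcB61 minus AcB55. Tests were two-sided, and p-values were adjusted by Benjamini-Hochberg within a comparison over all tested features (threshold 0.05). The script was tested on simulated data with independent noise on each array and no position pattern. That checks the code, not how the tests behave on these arrays. No array compared A/J with A/J, and the labels do not say whether the arrays shared a pool of A/J RNA. How far the tests against 0 take in the spread of A/J is therefore not known. The p-values measure array-to-array spread only, part of which may be technical. Spot signal was not used here, and the number of arrays limits the precision.

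The members, the pathway list and the marker lists were chosen with earlier results of these data known. For each comparison the up to 8 members past the threshold with the largest change in each direction are described, with array values for the first 4, given as the lowest, the median and the highest except for the most changed. All E1, cullin, Skp and COP9 genes are named, and other members by role. Of the pathway list, only some of the 4 largest changes in each direction past the threshold are named. Alternatives were centring, complete features, quantile normalization, separate fits, array weights, 1 probe per gene and left-out arrays. Subtraction of the position pattern and the sets of AcB61 and AcB55 arrays left out were chosen after seeing the data. Promoter windows and motif matches used Python 3.11.15 with numpy 2.4.6 and pandas 2.3.3, and figures matplotlib 3.10.9.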

Additional observations from a re-analysis of the deposited data

Results flagged for a closer look

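In 46 sets of array values, each of 1 described member in 1 strain, 4 arrays lay farther from the rest than the 95% limit of Dixon's test, which chance passes in about 1 of 20 sets. Otub2 was 0.804 on AcB55 replicate 1, against 0.452 on the nearest array. Ube2q1 was -0.224 on AcB55 replicate 3, against -0.449 on the nearest. Usp10 was 0.322 on AcB61 replicate 3, the only AcB61 array above 0, against -0.0881 on the nearest. Usp54 was -0.622 on AcB61 replicate 7, against -0.351 on the nearest.

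Between the strains, 10 members differed in the test of AcB61 minus AcB55. Higher in AcB61 were Usp8 by 0.855, Otud5 and Otulin each by 0.532, Fbxo11 by 0.429, Cops9 by 0.316, Ube2e1 by 0.299, Fbxl12 by 0.272 and Usp33 by 0.257. Lower in AcB61 were Ube2h by -0.49 and Usp32 by -0.271. Both means are set against the same A/J channel, and the cause of these differences was not tested.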

How the results depend on the processing

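Under the alternatives listed above, the number of members past the threshold moved by more than 1.5 times as follows. With the position pattern subtracted, 28 members were higher in AcB55 than A/J (18 as deposited), 6 were lower in AcB61 than A/J (3 as deposited), and 4 were lower in AcB61 than AcB55 (2 as deposited). The matching shares of all features were 15.1%, 18.3% and 14.1%, against 9.77%, 13.3% and 6.98% as deposited. Without AcB61 replicates 3, 5 and 7, 8 members were lower in AcB61 than A/J, and 13 were higher and 8 lower in AcB61 than AcB55, against 8 and 2 with all arrays. The shares of all features between the strains rose too, from 5.29% to 9.97% higher and from 6.98% to 11.3% lower. The share of all features lower in AcB61 than A/J was 13.3% in both settings. Without AcB61 replicates 2, 6 and 8, 6 members were lower in AcB61 than A/J and 5 lower in AcB61 than AcB55, beside 13% and 10.1% of all features. In that setting 11 of the 19 members higher in AcB61 than A/J kept their call, against 15 without replicates 3, 5 and 7. Of the 8 members higher in AcB61 than AcB55, 5 kept it, against 8 without replicates 3, 5 and 7. Array weights gave 4 members lower in AcB61 than AcB55, beside 11.6% of all features. Without AcB55 replicates 3 and 4, 2 members were higher in AcB61 than AcB55, beside 2.25% of all features. Without AcB55 replicates 1 and 2, which leaves as many arrays, 10 members were, beside 6.08% of all features. Of these 10, 6 were among the 8 called with all arrays, where the share of all features was 5.29%. The cause of these moves was not tested. Leaving out single arrays gave 15 to 20 members higher and 2 to 5 lower in AcB61 than A/J, 14 to 19 higher and 12 to 14 lower in AcB55 than A/J, and 3 to 11 higher and 2 to 3 lower in AcB61 than AcB55. Past the threshold without each single array were 14 of 19 and 2 of 3 in AcB61, 13 of 18 and 12 of 14 in AcB55, and 3 of 8 and 2 of 2 between the strains. Of the members past the threshold, the mean changed sign in 1 case: Usp32 in AcB55, at -0.0121 with 1 probe per gene and 0.19 as the mean of its probes. Fits of each strain on its own arrays give no difference between strains. No paired analysis was possible because the labels give no replicate numbers. Those used here follow the order of the samples in the series. The limits are the unstated dyes and normalization, the missing comparison of A/J with A/J, and cDNA probes that may detect related transcripts.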

Other observations

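The genes beside the 10 members that differed between the strains were read from RefSeq gene order, with 3 tested genes on either side, and this reading was chosen after the members' values were seen. For Usp8, Cops9, Fbxl12, Fbxo11, Otud5, Ube2e1 and Usp32, 0 of 6 neighbours were past the threshold between the strains in limma. For Otulin, 1 of 6 was, Zfp622, higher in AcB61 by 0.33. For Ube2h, 1 of 6 was, Nrf1, lower in AcB61 by -0.24, and for Usp33, 1 of 6 was, Fubp1, lower by -0.21. Of all named genes, 10.4% were past this threshold, and whether the neighbours exceed that share was not tested. The neighbours of Usp8 were Cops2, Hdc, Gabpb1, Trpm7, Sppl2a and Ncaph. Hdc, the enzyme that makes histamine, came closest among them, at -0.29 in AcB61 and -0.02 in AcB55, a difference of -0.27 (adjusted p = 0.05).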
